A study of Mus musculus with 8 samples.

Results

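The Schlafen genes are a mouse family of regulators of growth and quiescence in immune cells, and their transcripts are known to be induced by type I interferons and by bacterial lipopolysaccharide in macrophages. The family is commonly divided into short forms (Slfn1 and Slfn2), intermediate forms (Slfn3 and Slfn4) and long forms that carry an additional helicase-like part (Slfn5, Slfn8 and Slfn9). These 7 genes were taken by name from the 31406 genes of the count table, and all 7 were found. The libraries came from primary striatal cultures of wild-type C57/BL6 mouse pups aged 2 to 4 days, labelled as microglia, the resident macrophages of the brain, and grown for 15 days. All 8 cultures had been activated for 48 h with lipopolysaccharide at 0.01% (v/v) and interferon-γ at 0.002% (v/v), and the study's methods list the interferon-γ as a human product. The labels of all 8 give a time of 3 days, whereas the 48 h come from the study's methods. All 8 also received SCH 58261 at 200 nM, an antagonist of the adenosine A2A receptor, given at 24, 32 and 40 h.

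In the A2A antagonist group (n = 4) SCH 58261 was the only adenosine ligand, and in the dual group (n = 4) 2-Cl-IB-MECA at 200 nM, an agonist of the adenosine A3 receptor, was given with it. The comparison of the dual with the A2A antagonist group therefore asked what the A3 agonist added in activated cells that already carried the antagonist. No library without activation and no library without SCH 58261 was used here, so the induction of the family by the activation itself was not analysed here. The groups follow the sample titles and the column names of the table, and the treatment field of the labels contradicts them, naming 2-Cl-IB-MECA for the 4 cultures titled with SCH 58261 alone and leaving it out for the other 4. If the treatment field were right, each direction given here would be turned. The labels number the cultures but do not say whether they came from separate animals or litters, so the p-values measure the spread among these libraries, which may in part be technical. Total counts ran from 32630602 to 45878639 per library, of which 11588 to 16290 fell on the 7 Schlafen genes.

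The study's methods report a high purity of microglia by labelling with antibodies to the protein CD11b. Transcripts that mark other cell types were nonetheless present. Sums over marker lists of unequal length do not measure shares of cells. Ranges over the 4 A2A antagonist and the 4 dual libraries, as CPM (the usual depth-scaled read count, here also scaled between libraries by the trimmed mean of M-values), follow as summed levels. The 10 microglial markers, Csf1r and Cx3cr1 among them, summed to 1087 to 1162 and 1043 to 1099 CPM. The 7 astrocyte markers, led by Slc1a3, Gfap and Aqp4, summed to 5777 to 6044 and 5830 to 6282 CPM. The 6 fibroblast markers summed to 2379 to 2652 and 2369 to 2986 CPM, and P2ry12, a defining gene of resting microglia, was at 1.47 to 2.50 CPM over all 8 libraries. Because the samples are bulk cultures, a Schlafen transcript cannot be assigned to any of these cell types, and fewer cells of a type and less RNA per cell cannot be told apart. Several defining markers of other leukocytes were near 0, and others were not. Cd3e and Cd3d, which define T cells, were at 0 to 0.0518 CPM, but the kinase gene Lck of the same list was at 6.13 to 7.92 CPM, and the list summed to 7.23 to 8.21 and 6.16 to 7.46 CPM. The 3 B cell markers summed to at most 0.337 CPM, and Ly6c2 and Ccr2 of monocytes did not exceed 0.153 CPM, while Plac8 of the monocyte list was at 1.25 to 3.83 CPM. Of the 6 neutrophil markers, S100a9, Ly6g, Mpo and Elane were not listed in the table, Camp was at 4.20 to 6.56 CPM and S100a8 at 2.00 to 3.61 CPM. Among the 10 microglial markers C1qa, a complement gene, was called lower in the dual group and the other 9 were not called. No astrocyte, oligodendrocyte, fibroblast, endothelial, mural, neuronal, T cell, neutrophil, monocyte or proliferation marker that passed the filter was called, at an adjusted p of 0.05 in edgeR's quasi-likelihood test. At an unadjusted p under 0.05, which 12.8% of all genes reached, were 3 microglial markers (1 higher, 2 lower in the dual group), 3 astrocyte markers (2 higher, 1 lower), 3 fibroblast markers and 1 mural marker (all higher), and 2 neutrophil markers (1 higher, 1 lower). The part of the cell makeup in the Schlafen values was not tested.

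All 7 genes lie in a single cluster of 263.8 kb on mouse chromosome 11 (build GRCm38). In the order of the chromosome, Slfn5 (plus strand, 82951349 to 82964840) is followed by the minus-strand genes Slfn9 (82978390 to 82991830) and Slfn8 (83002158 to 83020810). The plus-strand genes Slfn2 (83065112 to 83070678), Slfn1 (83116849 to 83122670), Slfn4 (83175186 to 83190216) and Slfn3 (83191330 to 83215154) close it. Their exonic lengths reflect the division of the family, with 1664 bases for Slfn2 and 1864 for Slfn1, 3411 for Slfn3 and 3964 for Slfn4, and 4091 for Slfn8, 5965 for Slfn9 and 6326 for Slfn5. Neighbours share sequence, which bears on how reads were assigned. Of all stretches of 31 bases in the annotated transcripts, Slfn8 shared 27.3% with other genes and Slfn9 24.6%, mainly with each other and with the pseudogene Slfn10-ps. Slfn3 shared 30.9% and Slfn4 20.9%, foremost with each other and next with Gm11427 (10.8% of Slfn3 and 8.72% of Slfn4). Slfn1 shared 1.96%, Slfn2 10.8% and Slfn5 13.4%. Reads of such stretches may have been split between copies or left out, so the levels of Slfn3, Slfn4, Slfn8 and Slfn9 are less certain than those of Slfn1 and Slfn2. The antisense gene Slfn5os covers 559 of the 6326 exonic bases of Slfn5 but held only 0 to 2 counts, and Gm20234, antisense to Slfn2, shares no exonic base with it and held 20 to 44.

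The sequences before the RefSeq start sites are shown because interferon acts on its target genes through short promoter elements. RefSeq promoter windows on GRCm38.p6 were found for 7 of 7 genes, and the 250 bases before the RefSeq start are printed for the 6 genes that held one of the searched motifs. The RefSeq start of Slfn5 lies inside the gene span given above, so its window falls within the annotated gene rather than upstream of it. Capitals mark the interferon-stimulated response element core (GAAANNGAAA, or TTTCNNTTTC on the other strand) in Slfn5, Slfn8 and Slfn9. In Slfn1, Slfn2 and Slfn4 they mark 11 shared letters, ACTTCCTGGAG, which contain the GGAA core of ETS factor sites on the reverse strand. The Slfn3 window held no searched motif and is not printed, but it contains the near match ACTTCCTGGGG with the same core.
Slfn5, chr11:82951852-82952101, plus strand: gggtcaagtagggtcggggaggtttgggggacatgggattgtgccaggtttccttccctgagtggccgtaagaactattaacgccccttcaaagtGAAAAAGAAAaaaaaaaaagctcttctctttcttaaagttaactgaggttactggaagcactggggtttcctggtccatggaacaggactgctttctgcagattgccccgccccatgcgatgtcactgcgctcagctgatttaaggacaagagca
Slfn8, chr11:83020811-83021060, minus strand: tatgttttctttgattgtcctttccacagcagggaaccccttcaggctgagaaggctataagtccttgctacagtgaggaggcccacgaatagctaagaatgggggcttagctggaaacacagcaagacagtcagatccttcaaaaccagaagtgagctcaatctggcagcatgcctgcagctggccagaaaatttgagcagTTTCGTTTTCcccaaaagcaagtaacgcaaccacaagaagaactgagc
Slfn9, chr11:82991831-82992080, minus strand: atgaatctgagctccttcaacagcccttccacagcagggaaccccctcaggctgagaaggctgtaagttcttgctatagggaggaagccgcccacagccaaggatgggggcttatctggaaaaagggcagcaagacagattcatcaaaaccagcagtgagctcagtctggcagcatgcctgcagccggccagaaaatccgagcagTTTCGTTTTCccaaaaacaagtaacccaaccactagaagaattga
Slfn1, chr11:83116570-83116819, plus strand: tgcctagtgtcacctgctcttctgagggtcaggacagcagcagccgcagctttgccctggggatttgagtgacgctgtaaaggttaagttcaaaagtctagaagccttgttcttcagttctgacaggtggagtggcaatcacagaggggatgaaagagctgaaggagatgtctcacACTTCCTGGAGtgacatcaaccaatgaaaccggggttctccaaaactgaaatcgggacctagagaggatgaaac
Slfn2, chr11:83064862-83065111, plus strand: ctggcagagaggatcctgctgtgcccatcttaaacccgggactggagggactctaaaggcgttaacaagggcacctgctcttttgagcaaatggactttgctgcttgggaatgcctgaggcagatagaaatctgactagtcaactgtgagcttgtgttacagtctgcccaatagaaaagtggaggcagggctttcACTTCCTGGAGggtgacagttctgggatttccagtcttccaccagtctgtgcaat
Slfn4, chr11:83174936-83175185, plus strand: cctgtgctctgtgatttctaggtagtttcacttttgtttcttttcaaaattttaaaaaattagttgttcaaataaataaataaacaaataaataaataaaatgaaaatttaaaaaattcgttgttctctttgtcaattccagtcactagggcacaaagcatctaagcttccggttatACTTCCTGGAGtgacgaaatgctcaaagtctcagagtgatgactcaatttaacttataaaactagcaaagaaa

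The response element core was thus present in the windows of the 3 long forms and in none of the windows of Slfn1, Slfn2, Slfn3 and Slfn4. It lay 155 to 146 bases before the start of Slfn5, 48 to 39 bases before that of Slfn8 and 45 to 36 bases before that of Slfn9, counted from the RefSeq starts, and over all 32851 RefSeq windows of the same length 2.98% held it. Slfn8 has 2 annotated starts, of which the first is printed, and the same match lay 136 to 127 bases before the other. In Slfn8 and Slfn9 the match had the same letters, TTTCGTTTTC. The Slfn8 and Slfn9 windows were 80.2% identical when aligned end to end, against 45.5% to 53.4% for the other 20 pairs of windows. The 11 letters ACTTCCTGGAG lay 74 to 64 bases before the start of Slfn1, 55 to 45 before that of Slfn2 and 73 to 63 before that of Slfn4. They are the longest stretch found in all 3 of these windows, a set of 3 picked after the windows had been seen. Their presence there was thus fixed by the choice. On either strand 20 of the 32851 windows, or 0.0609%, held them, these 3 included. Neither the gamma-activated site TTCNNNGAA nor the PU.1 site GAGGAAGT (ACTTCCTC on the other strand) occurred in any of the 7 windows, and 7.02% and 2.44% of all windows held them. A match describes letters only, and binding was not measured.

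Slfn2 was the prevailing Schlafen transcript of these cultures. Per kilobase of exonic length, the median over the 8 libraries was 76.4 CPM per kb for Slfn2, 3.76 times that of Slfn8 at 20.3. Slfn5 (10.1) and Slfn1 (9.60) came next, followed by Slfn9 (6.64), Slfn4 (5.15) and Slfn3 (0.437 CPM per kb). Most neighbours in this order were separated in every library, with 2 exceptions. The ranges of Slfn5 and Slfn1 overlapped, Slfn5 being higher in 5 of 8 libraries, and so did those of Slfn9 and Slfn4, with Slfn9 higher in 7 of 8. Slfn2 made up 60.6% ± 1.16 (SD, n = 4) of the summed length-scaled level of the family in the A2A antagonist group and 58.1% ± 1.80 (SD, n = 4) in the dual group. The share of Slfn4 was 3.54% ± 0.765 and 4.71% ± 1.06 (SD, n = 4 each). The 7 genes together reached 355.8 ± 17.0 CPM in the A2A antagonist group and 348.1 ± 14.4 CPM in the dual group (SD, n = 4 each), a difference smaller than the spread within either group.

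**Figure D1:**
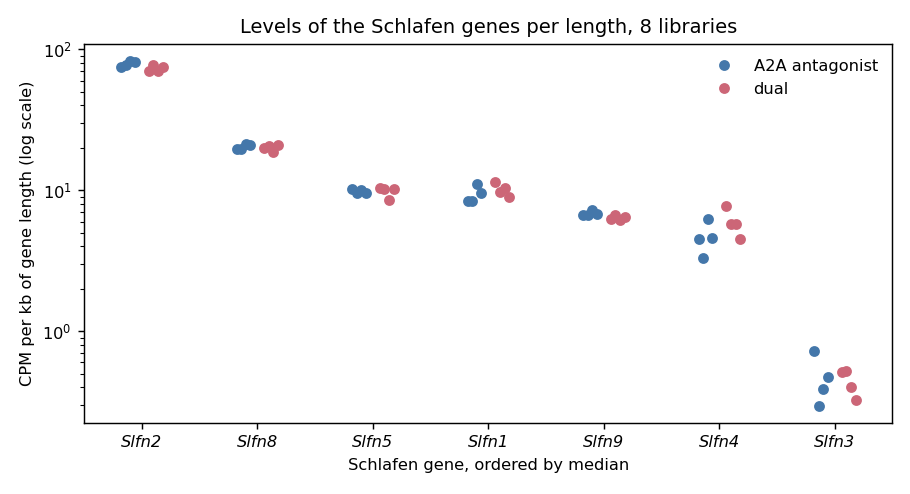
Levels of the 7 Schlafen genes in CPM per kilobase of exonic length (log axis), with a point for each of the 4 A2A antagonist and 4 dual libraries. Slfn2 stands above all others in every library, with a median of 76.4 CPM per kb, and Slfn3 below, with 0.437.

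The A3 agonist added to the antagonist left all 7 genes without a called difference. In edgeR's quasi-likelihood test over 18756 genes, which all 7 entered, 0 of 7 had an adjusted p under 0.05, where 0.208% of all genes tested were called, 0.16% lower and 0.048% higher in the dual group. Their adjusted p-values ran from 0.220 to 0.981. At an unadjusted p under 0.05 there were 2 of 7, Slfn2 lower and Slfn4 higher in the dual group, against 12.8% of all genes, 6.81% lower and 5.98% higher. DESeq2's Wald test likewise called 0 of the 6 members for which it gave an adjusted p. It had 1 at an unadjusted p under 0.05, which was Slfn2 and not Slfn4. For none of the 7 were the groups separated, against 7.42% of all genes, 4.06% lower and 3.36% higher. Lower values in the dual group were found for 5 genes and higher values for 2, and 48.5% of all genes were lower. The median log2 fold change was -0.025, beside 0.0038 over all genes.

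**Figure D2:**
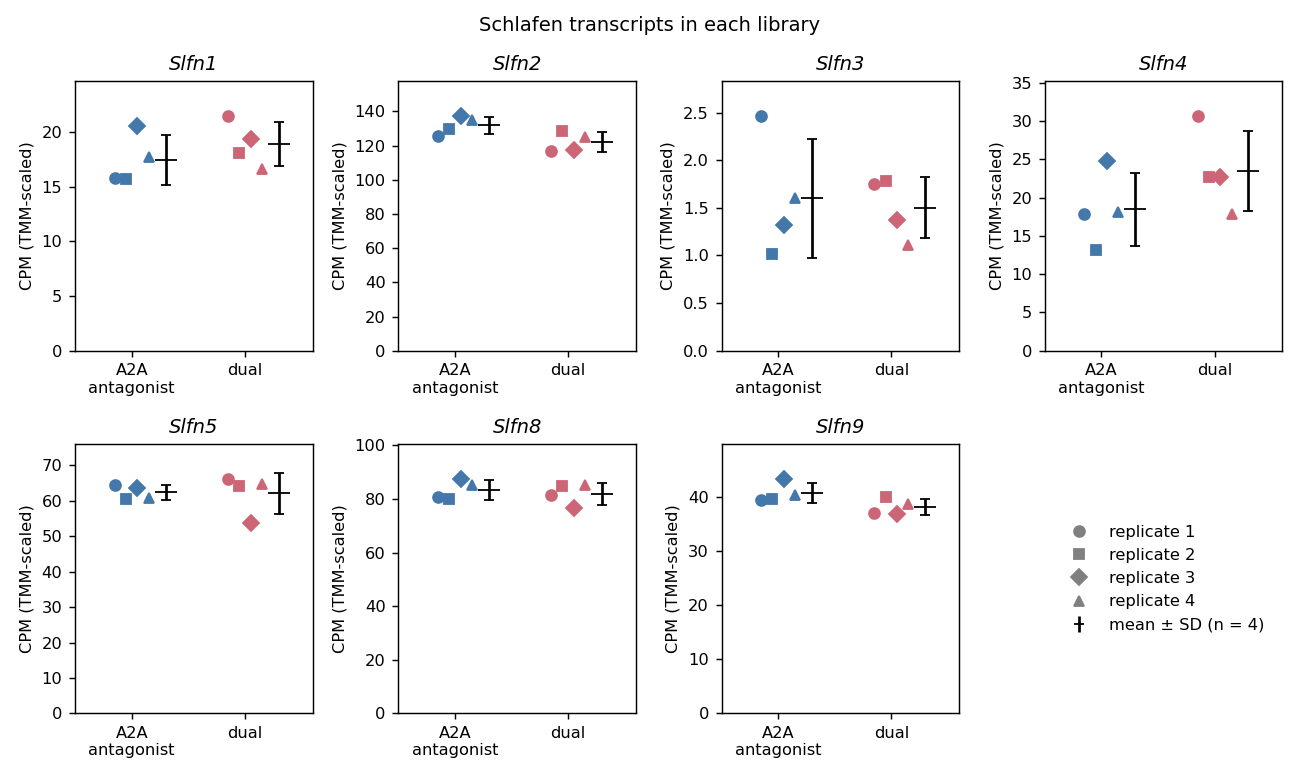
CPM of each Schlafen gene in each library, with the vertical axis starting at 0, symbols for the replicate numbers, and the mean ± SD of each group (n = 4) in black. The groups overlap for all 7 genes, and Slfn4 ranges from 13.1 to 30.7 CPM.

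Among the short forms, Slfn2, which is needed for the survival and quiescence of T cells and monocytes, was at 125.6, 129.9, 137.2 and 134.7 CPM in A2A antagonist replicates 1 to 4. In the dual group it was at 116.7, 128.6, 117.3 and 124.9 CPM. All 4 dual libraries were below the mean of the A2A antagonist group and 3 were below its lowest library, but replicate 2 was not. The means were 131.8 ± 5.13 and 121.9 ± 5.82 CPM (SD, n = 4), and the log2 fold change was -0.11 (SE 0.0401, adjusted p 0.220 in edgeR, 95% interval -0.20 to -0.03). As a change of level, the interval spans -12.8% to -1.99%. Slfn1, described as restraining the growth of T cells, stood at 15.8, 15.7, 20.6 and 17.7 CPM in the A2A antagonist libraries and at 21.5, 18.1, 19.4 and 16.7 CPM in the dual libraries. These values intermingle, with dual replicate 1 and A2A antagonist replicate 3 highest. Its log2 fold change was 0.11 (SE 0.0859, adjusted p 0.629 in edgeR, 95% interval -0.07 to 0.29).

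Of the intermediate forms, Slfn4, a gene of activated macrophages and other myeloid cells, had the largest fold change of the 7. It was at 17.9, 13.1, 24.7 and 18.1 CPM in the A2A antagonist libraries and at 30.7, 22.7, 22.7 and 17.9 CPM in the dual libraries. The single highest library was dual replicate 1, whereas dual replicate 4 lay among the A2A antagonist values. The means were 18.5 ± 4.78 and 23.5 ± 5.27 CPM (SD, n = 4). Slfn4 thus had a log2 fold change of 0.34 (SE 0.149, adjusted p 0.338 in edgeR, 95% interval 0.03 to 0.66). Single libraries decided its size, since it was 0.20 without dual replicate 1 and 0.52 without A2A antagonist replicate 3. Without the filter on low counts, the log2 fold change of Slfn4 was again 0.34, but its adjusted p in edgeR was 0.0377. Slfn4 was the only member called under any alternative. DESeq2's Wald test gave Slfn4 a log2 fold change of 0.35 with an unadjusted p of 0.161 (adjusted p 0.501). Slfn3, known from the differentiation of gut epithelium, was scarce, with 46 to 95 counts per library. Its level was 2.46, 1.01, 1.32 and 1.61 CPM in the A2A antagonist libraries and 1.75, 1.79, 1.37 and 1.11 CPM in the dual libraries. The highest and the lowest value both belonged to the A2A antagonist group, and the log2 fold change was -0.09 (SE 0.241, adjusted p 0.920 in edgeR, 95% interval -0.60 to 0.41). Its direction turned, to 0.18, without A2A antagonist replicate 1 and, to 0.035, without dual replicate 4. Since Slfn3 and Slfn4 share sequence, their summed level was also taken, and it was 20.1 ± 4.88 and 25.0 ± 5.52 CPM (SD, n = 4 each). Gm11427, with which both also share stretches, is not in this sum.

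Differences were small among the long forms. Slfn5, which acts in the nucleus on transcription, was at 64.5, 60.5, 63.7 and 60.7 CPM in the A2A antagonist libraries and at 66.1, 64.2, 53.6 and 64.7 CPM in the dual libraries. The dual group held the highest value and the lowest, the latter in replicate 3. The log2 fold change was -0.0059 (SE 0.0548, adjusted p 0.981 in edgeR, 95% interval -0.12 to 0.11), and it was 0.058 without that library. Slfn8, a long form expressed in immune cells, was at 80.7, 79.9, 87.5 and 85.4 CPM in the A2A antagonist libraries. Its dual values of 81.4, 84.9, 76.5 and 85.1 CPM covered much the same range. The log2 fold change of Slfn8 was -0.025 (SE 0.0430, adjusted p 0.867 in edgeR, 95% interval -0.12 to 0.07), turning to 0.0046 without dual replicate 3. Slfn9, its neighbour, was at 39.5, 39.7, 43.4 and 40.4 CPM in the A2A antagonist libraries and at 37.1, 40.1, 36.8 and 38.7 CPM in the dual libraries. Replicates 1, 3 and 4 of the dual group were below every A2A antagonist library, while replicate 2 fell among them. Its log2 fold change was -0.094 (SE 0.0453, adjusted p 0.400 in edgeR, 95% interval -0.19 to 0.0016). The sum of Slfn8, Slfn9 and Slfn10-ps, which share sequence, was 130.3 ± 5.32 and 127.2 ± 5.32 CPM (SD, n = 4 each).

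**Figure D3:**
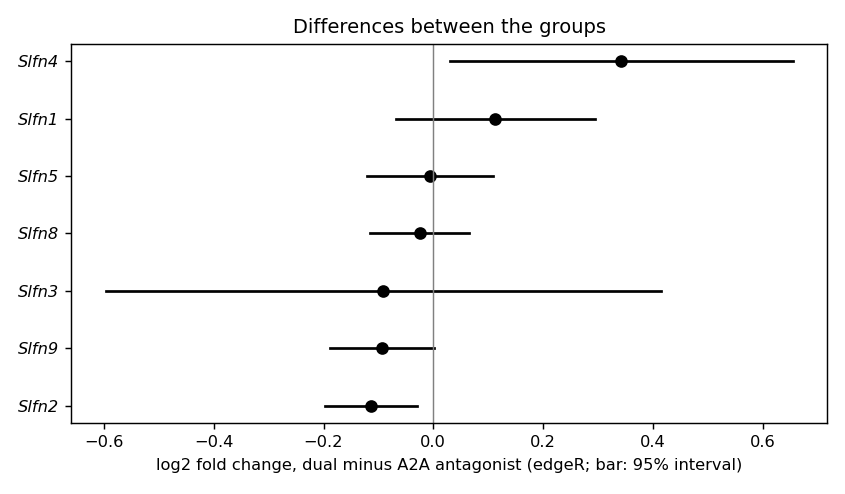
Log2 fold change of each Schlafen gene, dual minus A2A antagonist, from edgeR's fit over all genes (points) with its 95% interval (bars). The intervals of Slfn2 and Slfn4 leave out 0 before adjustment, on opposite sides, and those of Slfn3 and Slfn4 are the widest. In DESeq2's Wald test only Slfn2 was at an unadjusted p under 0.05.

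A missed threshold does not show that the groups were alike. Under edgeR's estimate of variance, the intervals set how large a difference these libraries leave room for. For 5 of the 7 genes, Slfn1, Slfn2, Slfn5, Slfn8 and Slfn9, the whole interval lay within a 1.5-fold change in either direction, its farthest bounds being 1.23-fold higher for Slfn1 and -12.8% for Slfn2. For Slfn4 it reached 1.58-fold higher and for Slfn3 from -33.9% to 1.33-fold higher, so for these 2 genes changes of that size are not excluded. edgeR draws the variance of each gene toward that of other genes, so for variable genes such as Slfn4 the interval may be too narrow.

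Slfn4 and Slfn1 were among the most variable genes between replicate cultures. The mean coefficient of variation within groups was 24.2% for Slfn4 and 11.97% for Slfn1. Of the 10534 genes with a mean of at least 10 CPM, 99.8% and 98.8% had a smaller one, and the median was 4.28%. Counting error alone would give 3.29% for Slfn4 and 3.64% for Slfn1 in the dual group. Slfn5 (6.31%), Slfn8 (4.65%), Slfn2 (4.33%) and Slfn9 (4.23%) had 81.1%, 57.5%, 51.1% and 48.7% of those 10534 genes below them. Slfn3 varied by 30.3% but lies under 10 CPM, where counting error was 13.0% in the dual group.

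The libraries high in Slfn4 were also high in Slfn1. Both genes were highest in dual replicate 1 and next in A2A antagonist replicate 3, and lowest in A2A antagonist replicate 2. Over the 8 libraries Pearson's r of log2 CPM was 0.920 and Spearman's rho 0.976 (two-sided exact permutation p 0.000198 and 0.000397, or 0.00208 and 0.00833 after Benjamini-Hochberg adjustment over 21 pairs of members). Within the groups, the deviations from the group means gave 0.913, and without the 2 libraries farthest from the median of Slfn1 r was 0.830. These 2 genes share 1.64% of the 31-base stretches of Slfn1. Slfn2 and Slfn9 formed the other such pair, both highest in A2A antagonist replicate 3 and low in dual replicates 1 and 3. For them r was 0.943 and rho 0.952 (two-sided exact permutation p 0.000174 and 0.00114, adjusted 0.00208 and 0.0120), the deviations within groups gave 0.896, and r without the 2 farthest libraries was 0.865.

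**Figure D4:**
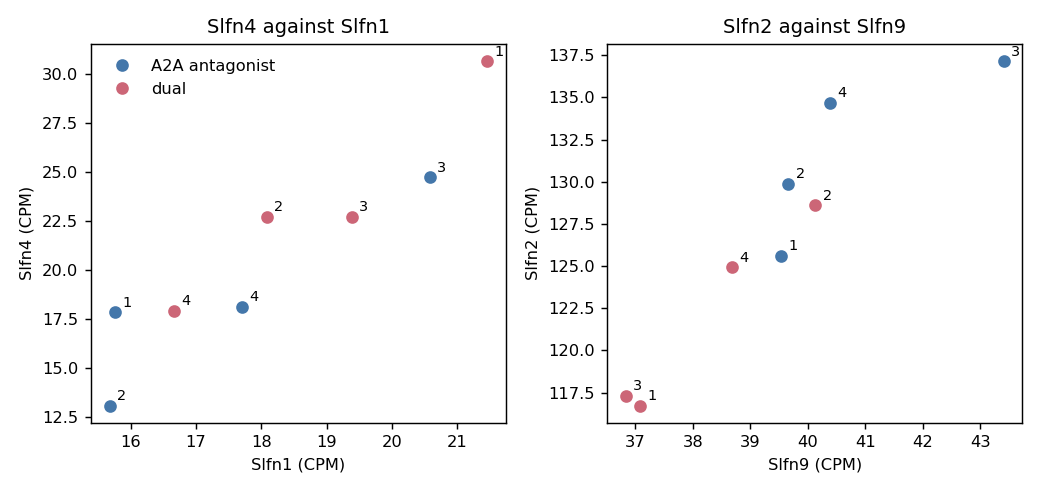
Slfn4 against Slfn1 (left) and Slfn2 against Slfn9 (right) in CPM, a point per library with its replicate number, in the colours of the 2 groups. The axes do not start at 0. Dual replicate 1 is highest on the left, where r is 0.920, and A2A antagonist replicate 3 on the right, where r is 0.943.

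The other 19 pairs did not pass the adjustment, with r from -0.378 to 0.751. Slfn8 went with Slfn9 at 0.751 and with Slfn2 at 0.722 (adjusted exact permutation p 0.220 and 0.247). Without the 2 libraries farthest from the median of Slfn8, r of Slfn8 with Slfn9 was 0.310. Such a removal narrows the range and can lower r by itself. The deviations within groups gave 0.840 for Slfn8 with Slfn9 and 0.846 for Slfn8 with Slfn2. The r of 0.628 between Slfn5 and Slfn8 became -0.503 without the 2 libraries farthest from the median of Slfn5. Slfn2 and Slfn4, whose fold changes had opposite signs, gave -0.378 over all libraries and -0.013 within groups. The members of a pair were measured in the same libraries and share their scaling.

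**Figure D5:**
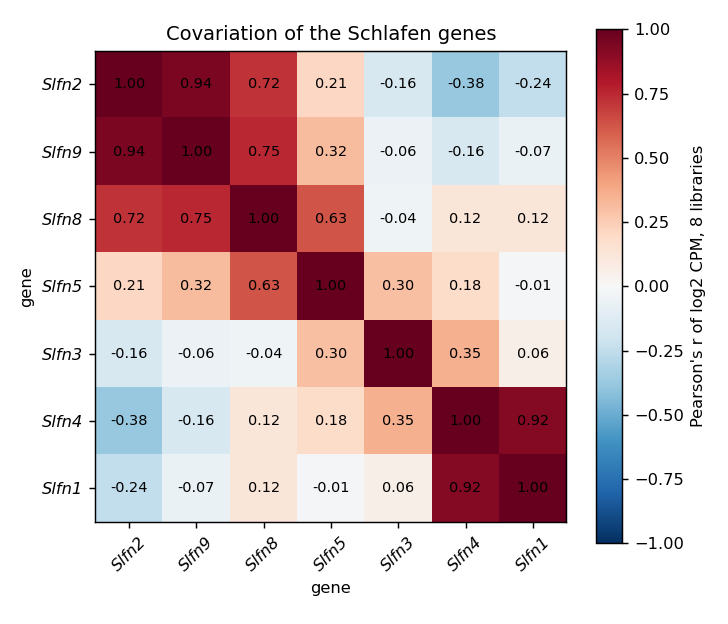
Pearson's r between the log2 CPM of each pair of Schlafen genes over 8 libraries, from -1 (blue) to 1 (red). Slfn2 with Slfn9 (0.943) and Slfn4 with Slfn1 (0.920) passed the adjustment, and the pairs of Slfn8 with Slfn9 (0.751) and Slfn2 (0.722) did not.

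The genes of the whole table that most resembled each member were sought among 11056 candidates whose log2 CPM averaged 3 or more, by Pearson's r over the 8 libraries, as a description. With so many candidates and 8 libraries, high values of r can arise by selection alone. The candidates with r over 0.9 numbered 19 for Slfn1, 41 for Slfn2, 3 for Slfn3 and 12 for Slfn4. For Slfn5, Slfn8 and Slfn9 they numbered 9, 11 and 29. Slfn1 was most like Araf (0.982), the myeloid transcription factor gene Irf8 (0.968) and Cpxm1 (0.962). Irf8 was at 43.3, 43.9, 48.8 and 45.3 CPM in the A2A antagonist libraries and at 49.9, 47.7, 48.1 and 45.02 CPM in the dual libraries, so its values intermingled as those of Slfn1 did. Slfn4 was most like Gla (0.969), Ptdss1 (0.961) and Slc9a5 (0.945). Cmpk2, an interferon-induced nucleotide kinase of mitochondria, was among the first 3 for both Slfn2 (0.959) and Slfn9 (0.968). It was at 73.9, 73.1, 81.4 and 78.0 CPM in the A2A antagonist libraries and at 68.8, 73.7, 67.3 and 72.1 CPM in the dual libraries. The others were Phf11b (0.965) and Slc25a45 (0.957) for Slfn2, and Gpatch4 (0.971) and Ptk2b (0.959) for Slfn9. Slfn8 was most like Slc36a1 (0.970), Arhgap9 (0.964) and Ormdl2 (0.951), Slfn5 most like Mtfmt (0.957), Stmn2 (0.949) and D10Wsu102e (0.948), and Slfn3 most like Epb41l2 (0.972), Igf1r (0.925) and Scfd2 (0.906). None of these 20 genes was called between the groups.

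Outside the 7 genes, the pseudogene Slfn10-ps, which lies between Slfn8 and Slfn2, was at 6.18 ± 0.390 and 7.01 ± 0.890 CPM (SD, n = 4) and was not called (log2 fold change 0.18, adjusted p 0.453 in edgeR). Slfnl1, a Schlafen-like gene on chromosome 4, was nearly silent. Its counts were 9, 1, 4 and 4 in the A2A antagonist libraries and 11, 19, 11 and 15 in the dual libraries, without overlap. The log2 fold change was 1.70 (SE 0.484, adjusted p 0.140 in edgeR), so it was not called. Slfn14 had 0 to 6 counts per library and did not pass the filter.

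The genes around the family in the interferon pathway gave the setting. Of 22 interferon-induced genes, all tested, 22 had lower values in the dual group, 3 were called and 21 were lower at an unadjusted p under 0.05, with a median log2 fold change of -0.157. Over all genes 48.5% were lower and 6.81% were lower at an unadjusted p under 0.05. The lists of this paragraph were chosen with earlier results of these data known. Their counts therefore describe these libraries and are no independent support. The called genes were Ifit3, which restrains viral RNA (log2 fold change -0.23, adjusted p 0.0240 in edgeR), the ubiquitin-like Isg15 (-0.25, 0.0255) and the chemokine Cxcl10 (-0.24, 0.0311), where 0.16% of all genes were called lower. Without A2A antagonist replicate 2, 3 or 4, or without dual replicate 3, 0 of the 22 were called. Among 11 genes of interferon receptors and signal transducers 9 were lower and 0 called, Irf1 being nearest (-0.17, adjusted p 0.0557 in edgeR), with 2 lower at an unadjusted p under 0.05. Among 7 genes listed as feedback inhibitors of the pathway, 6 were lower, 4 of them at an unadjusted p under 0.05. That list shares Isg15 and Usp18 with the first, and its only called gene was Isg15, already counted there. Of 17 genes of the response to lipopolysaccharide and NF-κB, 13 were lower and 0 called. At an unadjusted p under 0.05, reached by 12.8% of all genes, 9 of the 17 were lower and 2 higher. The nearest were the inhibitors of NF-κB signalling Tnfaip3 (-0.16, adjusted p 0.0606 in edgeR) and Nfkbia (-0.17, 0.0686). The Schlafen genes, also known as interferon-induced, had a median of -0.025, and whether they differ from the interferon-induced list was not tested.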

How the data were processed

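RNA-seq libraries from 8 cultures, 4 per group, were analysed. The authors deposited whole-number counts of reads per gene, unnormalized and not pooled, made with HISAT2 and, per the labels, featureCounts 1.5.0-p3 on mm10. The setting for strand is not given in the sources used here. The authors' own columns of log2 fold changes and p-values were not used. Also left out were 9 per-sample columns that belong to no sample of the series, the vehicle control columns among them. All rows named a gene. Replicates differed by more than sampling noise (chi-square per degree of freedom 3.80 to 9.43), so none was a duplicate. Counts of the A2A antagonist libraries were identical in the 2 deposited tables.

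Counts were filtered with filterByExpr (minimum count 10), which left 18756 genes, scaled by TMM and tested with edgeR 4.0.16 (glmQLFit and glmQLFTest, group as the only term, R 4.3.3), with Benjamini-Hochberg adjustment over all genes at 0.05. CPM used the TMM factors, and log2 CPM for correlations a prior count of 2. The test was checked on simulated counts. Gene positions in the table were compared with GENCODE M21, where all 7 Schlafen genes had the same coordinates. Alternatives were DESeq2 1.42.0, other scalings, no filter, the replicate number as a block and each library left out.

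The members and the gene lists were chosen with earlier results of these data known. Named were all 7 members, other Schlafen genes, genes within the cluster, up to 4 called genes of each list or else up to 2 with the smallest p (of the cell type markers, the called gene and defining markers), and the 3 genes most correlated with each member. One gene that this rule names is not reported here. Total counts of 32630602 to 45878639 per library put 46 to 95 counts on Slfn3 and 596 or more on each other member.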

Additional observations from a re-analysis of the deposited data

Results flagged for a closer look

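The CPM of Slfn5 in dual replicate 3, 53.6, stood apart from the other 3 dual libraries at 64.2, 64.7 and 66.1 CPM, with a gap to the nearest that exceeded Dixon's critical value of 0.829 of the group's range. It was the only such library among 18 groups of 4 examined for the Schlafen genes, and chance marks about 1 in 20 groups. The same library had the lowest Slfn8 (76.5 CPM) and Slfn9 (36.8 CPM). A cause was not tested.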

How the results depend on the processing

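With all 8 libraries 39 genes were called, and 366 without the low-count filter, 17 with the replicate block, 417 with DESeq2 (adjusted p for 8877 genes) and 0 to 172 when each library was left out. The Schlafen count of 0 stayed at 0 under 13 of 14 alternatives and was 1 without the filter (Slfn4). Of 98 member values, 8 reversed. Slfn3 became 0.18 without A2A antagonist replicate 1 and 0.035 without dual replicate 4. Slfn5 became 0.0024 with upper-quartile factors, 0.0039 with library size only, 0.0095 and 0.0040 without A2A antagonist replicates 1 and 3, and 0.058 without dual replicate 3. Slfn8 became 0.0046 without dual replicate 3. The cause was not tested. Slfn1 (0.05 to 0.20), Slfn2 (-0.14 to -0.094), Slfn4 (0.20 to 0.52) and Slfn9 (-0.12 to -0.063) kept their sign with each library left out, where Slfn3 spanned -0.26 to 0.18, Slfn5 -0.037 to 0.058 and Slfn8 -0.045 to 0.0046.

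Without the filter, 14 interferon-induced, 1 signalling, 3 feedback and 5 lipopolysaccharide response genes were called, and with DESeq2 17, 1, 2 and 4. With the replicate block 1 interferon-induced and 0 feedback genes were called. With libraries left out the calls ranged from 0 to 9 for interferon-induced, 0 to 1 for signalling, 0 to 2 for feedback and 0 to 3 for lipopolysaccharide response genes, and from 0 to 1 for the other Schlafen genes. Same-numbered libraries did not deviate together (r -0.0529 to 0.0408), so the replicate block tests only a shared number, and it called 0 members. All 7 members passed the filter, so the permutation test planned for members failing it was not run. Slfn3 rests on 46 to 95 counts per library, and its variation within groups (39.1% and 21.6%) exceeded the counting error.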

Other observations

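Other annotated genes within the Schlafen cluster were weakly expressed. The processed pseudogene Gm11425 had 29 to 61 counts per library, the antisense gene Gm20234 20 to 44 and the long noncoding RNA gene 1190001M18Rik 5 to 15. Their log2 fold changes were 0.09, 0.17 and -0.15, and none was called (adjusted p 0.921, 0.836 and 0.913 in edgeR's quasi-likelihood test). Gm11424 had at most 7 counts, Mir7679 at most 9 and Gm27598 at most 3, and these did not pass the filter.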
